A study of Mus musculus with 12 samples.

Results

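The Wnt target genes that mark the hepatocytes around the central vein were followed across the livers of 12 mice aged 39 weeks. The set holds Axin2, Rnf43, Znrf3, Lgr5, Tbx3, Glul, Oat, Slc1a2 and Rhbg, 9 of the 24527 gene symbols in the count table. All 9 were in the table, and all 9 were among the 13204 genes that passed the filter on low counts. The animals came from CF1 mothers and B6SJL fathers and had been conceived either naturally or by IVF, fertilization of the egg in a dish, for which the labels cite a Jackson Laboratory protocol. Females and males of each mode of conception gave 4 groups with n = 3 libraries each, here called natural female, IVF female, natural male and IVF male. RNA came from part of each snap-frozen liver and was selected by its poly-A tail. The labels give no genotype or treatment that separates the groups other than conception and sex, and library numbers within a group are names with no order. The titles of IVF female 1 and IVF male 2 share a number whose meaning the labels do not give, so these libraries may not be independent.

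The liver lobule is patterned from the portal vein, where blood enters, to the central vein, where it leaves. Endothelial cells of the central vein release Wnt proteins and the Wnt amplifier R-spondin 3, which keep beta-catenin active in the nearest hepatocytes. Beta-catenin then switches on genes for glutamine synthesis and drug metabolism, together with genes whose products dampen the pathway itself. Whole liver was measured here, so fewer pericentral cells and less RNA per cell cannot be told apart in any value that follows. The tissue label was checked against 9 hepatocyte markers, such as albumin, whose summed level was 84200 to 130000 CPM in every library; CPM is the counts-per-million scale, here with library sizes adjusted by edgeR's TMM factors.

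The RefSeq promoter table (GRCm38.p6) held windows for 5 of the 9 genes, namely Glul, Axin2, Oat, Slc1a2 and Rnf43. The factors through which beta-catenin acts, TCF and LEF, bind near the letters CTTTGAT or CTTTGAA, so the 250 bases before each start site were searched for both, on both strands. The windows of Glul (chr1:153899679-153899928) and Axin2 (chr11:108920099-108920348) are shown because these genes stand for the metabolic and the feedback side of the pathway, and that of Slc1a2 (chr2:102706188-102706437) because it was the single window of the 5 genes with a match. All 3 lie on the plus strand and are printed 5′ to 3′, and capitals mark the match.
Glul: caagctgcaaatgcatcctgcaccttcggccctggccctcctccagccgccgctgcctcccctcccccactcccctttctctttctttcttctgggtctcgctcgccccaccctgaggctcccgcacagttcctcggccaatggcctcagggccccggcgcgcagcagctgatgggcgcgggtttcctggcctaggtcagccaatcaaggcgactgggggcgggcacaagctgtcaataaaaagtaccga
Axin2: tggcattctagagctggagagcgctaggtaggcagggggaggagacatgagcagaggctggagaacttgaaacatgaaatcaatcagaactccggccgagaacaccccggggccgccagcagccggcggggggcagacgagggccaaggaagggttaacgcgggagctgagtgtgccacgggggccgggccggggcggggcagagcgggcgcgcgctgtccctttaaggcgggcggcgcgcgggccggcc
Slc1a2: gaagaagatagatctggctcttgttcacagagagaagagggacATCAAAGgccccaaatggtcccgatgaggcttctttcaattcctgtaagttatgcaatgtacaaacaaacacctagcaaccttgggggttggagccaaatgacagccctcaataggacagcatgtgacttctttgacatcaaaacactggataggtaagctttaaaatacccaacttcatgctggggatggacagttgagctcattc
The Slc1a2 match reads ATCAAAG, which is CTTTGAT on the other strand, 207 bases before the annotated start. That start lies inside the span of the gene, downstream of its first annotated exon. Among 32851 promoter windows of the same length, 3.21% held CTTTGAT and 4.46% held CTTTGAA. Either was found in 7.48%, so that 1 of 5 genes is a description and not an enrichment. The windows of Glul, Axin2, Oat and Rnf43 did not hold these letters. Their base composition differed, with 64.8% G and C in the Glul window, 69.2% in the Axin2 window and 44.8% in the Slc1a2 window.

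The 9 genes covered a wide range of abundance. Per kilobase of exon, which allows genes to be compared, Glul and Oat stood at the top in each of the 4 groups, with group means of 204 to 287 CPM per kb for Glul and 131 to 265 for Oat. Slc1a2 came next at 12.6 to 18.4 CPM per kb, followed by Tbx3 at 5.48 to 12.6. The remaining genes lay close together, with Rnf43 at 3.36 to 4.91, Rhbg at 2.10 to 4.53, Znrf3 at 1.61 to 2.26, Axin2 at 1.29 to 3.11 and Lgr5 at 0.633 to 1.07 CPM per kb. The length used was that of all annotated exons of a gene, for Lgr5 10264 bases against 4793 in its longest transcript. The order of the rarer genes may depend on that choice. Some neighbours at the lower end overlapped and others did not: in natural females Rnf43 was 4.91 ± 0.366, Rhbg 3.98 ± 1.60, Axin2 3.11 ± 0.632, Znrf3 2.26 ± 0.488 and Lgr5 1.07 ± 0.277 CPM per kb (SD, n = 3). Rhbg overlapped both Rnf43 and Axin2 there, and Axin2 overlapped Znrf3, while Rnf43 lay above Axin2 and Znrf3 above Lgr5 in all libraries. Glul and Oat also overlapped in IVF females, at 287 ± 58.1 and 265 ± 60.5 CPM per kb (SD, n = 3), and in natural females and IVF males. Slc1a2 overlapped Tbx3 in natural females.

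Depth set the precision for the rarer genes. Library totals ran from 6826534 to 27832271 counts. Both small libraries, IVF female 1 with 6826534 and natural female 2 with 8056230 counts, belong to female groups and are called shallow here. Axin2 had 30 counts in IVF female 1, which gives an exact 95% interval of 3.00 to 6.36 CPM, and Rhbg had 28 counts there (2.76 to 6.01 CPM). Such intervals describe counting error alone: the reads carry no molecular identifiers and need not be separate molecules.

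**Figure D1:**
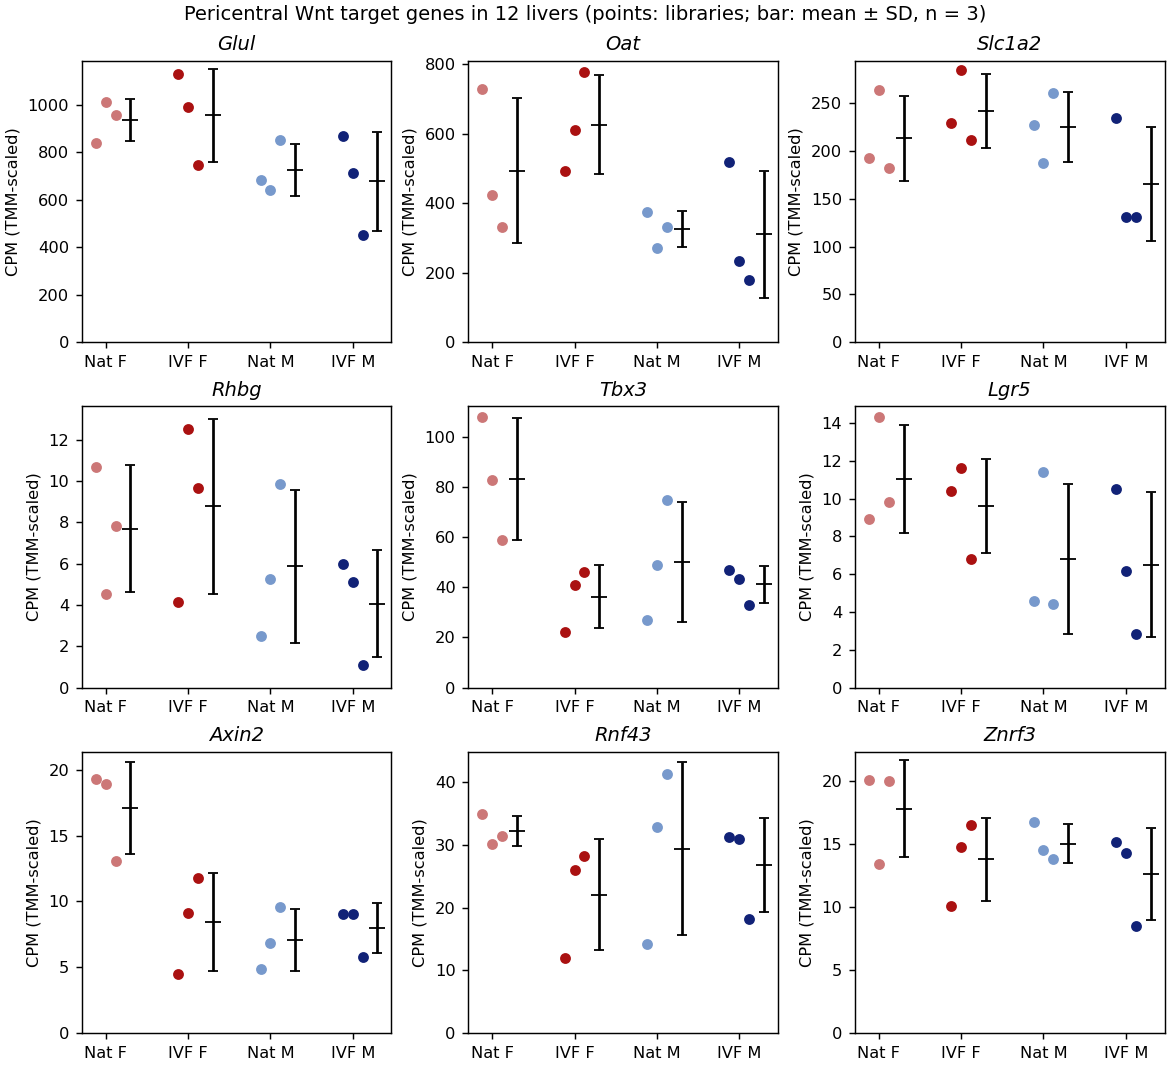
TMM-scaled CPM of the 9 genes (vertical axes, from 0) in natural (Nat) and IVF females (F) and males (M). Points are libraries and bars are group means with SD (n = 3); the Axin2 and Tbx3 points of natural females lie above those of IVF females, with no overlap.

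The feedback regulators were measured first. Axin2, a scaffold of the complex that destroys beta-catenin and itself a target of the pathway (chr11:108920349-108950783, plus strand), stood at 19.3, 18.9 and 13.1 CPM in natural females. In IVF females it was 4.45, 9.10 and 11.8 CPM, in natural males 4.84, 6.84 and 9.57 CPM, and in IVF males 9.06, 9.05 and 5.76 CPM. All 3 natural females lay above the other 9 livers, which overlapped among themselves. Rnf43, a membrane ubiquitin ligase that removes Wnt receptors from the cell surface (chr11:87662722-87735539, plus strand), was 34.9, 30.2 and 31.5 CPM in natural females and 11.9, 26.0 and 28.3 CPM in IVF females. Its males overlapped both, with 14.2, 32.8 and 41.3 CPM after natural conception and 31.3, 30.9 and 18.2 CPM after IVF. Znrf3, the related ligase (chr11:5276324-5444847, minus strand), had group means between 12.7 ± 3.68 CPM in IVF males and 17.9 ± 3.85 CPM in natural females (SD, n = 3), and its groups overlapped in each comparison made within a sex or a mode of conception.

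Tbx3, a T-box transcription factor (chr5:119670669-119684724, plus strand), was 108, 82.9 and 59.1 CPM in natural females and 22, 41.1 and 46.0 CPM in IVF females. The lowest natural female thus stood above the highest IVF female. Natural males spread from the level of IVF females to that of natural females, with 26.8, 48.8 and 75.0 CPM, and IVF males lay at 47.1, 43.4 and 33.1 CPM. Lgr5, the R-spondin receptor (chr10:115450311-115587780, minus strand), was the rarest of the 9 per kilobase of all annotated exons. Its group means ran from 6.50 ± 3.84 CPM in IVF males to 11 ± 2.84 CPM in natural females (SD, n = 3), and its groups overlapped in each comparison as well.

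The remaining genes handle glutamate, glutamine and ammonia. Glul encodes glutamine synthetase, which fixes the ammonia that periportal cells leave in the blood (chr1:153899944-153909723, plus strand). It was 839, 1010 and 957 CPM in natural females, 1130, 989 and 746 CPM in IVF females, 683, 641 and 851 CPM in natural males, and 867, 714 and 453 CPM in IVF males. Its exons overlap those of Teddm2 by 116 bases on the other strand, and whether strand was used in counting is not given in the sources used here. Females and males overlapped in both modes of conception. Oat encodes ornithine aminotransferase, which turns ornithine towards glutamate (chr7:132557478-132576398, minus strand). It was 728, 422 and 330 CPM in natural females, 492, 610 and 776 CPM in IVF females, 374, 270 and 330 CPM in natural males, and 519, 233 and 179 CPM in IVF males. Natural female 1 and IVF male 1 stood well above the rest of their groups. Slc1a2, a glutamate transporter (chr2:102658659-102790784, plus strand), had group means of 165 ± 59.7 to 242 ± 38.7 CPM (SD, n = 3). Rhbg, an ammonia transporter (chr3:88242874-88254709, minus strand), was 10.7, 4.55 and 7.82 CPM in natural females, 4.16, 12.5 and 9.66 CPM in IVF females, 2.51, 5.24 and 9.84 CPM in natural males, and 5.97, 5.12 and 1.10 CPM in IVF males. The groups overlapped, and the SD reached 64% of the mean in IVF males, the widest relative spread of the 9 genes. The lowest liver, IVF male 3, rests on 22 counts (exact 95% interval 0.69 to 1.67 CPM). Its exons share 1190 bases on the same strand with the annotated gene Gm38392, so reads there may have been assigned to either gene or to none.

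The first comparison asked whether females conceived by IVF differ from naturally conceived females. Tbx3, Axin2 and Rnf43 were lower in every IVF female than in every natural female, while Glul, Oat, Slc1a2 and Rhbg lay close to or above the natural level. For Axin2 and Rnf43 this separation lay within counting error, because the exact 95% intervals of the closest livers overlapped. These livers were IVF female 3 and natural female 3 for Axin2, and IVF female 3 and natural female 2 for Rnf43. For Tbx3 the intervals of the closest livers, IVF female 3 and natural female 3, did not overlap. No gene passed the test: 0 of 9 were called by edgeR's quasi-likelihood test, beside 0% of all 13204 genes, and 0 of 9 by DESeq2 or limma voom. At an unadjusted p under 0.05 there were 2 of 9, beside 3.7% of all genes. Groups without overlap and lower in IVF females numbered 3 of 9, beside 3.87% of all genes. These 3 genes also moved together between livers of the same group (r = 0.90 to 0.93, given below). They are therefore not independent observations, and the counts were not tested against the shares of all genes. The fitted log2 fold change of Tbx3 was -1.19 ± 0.378 (SE), a 2.28-fold lower level (95% interval -2.02 to -0.37, edgeR adjusted p = 1). Intervals are for 1 gene at a time and are not adjusted for the number of genes. Axin2 followed with -0.99 ± 0.354, or 1.98-fold lower (95% interval -1.76 to -0.21, edgeR adjusted p = 1). Rnf43 had -0.53 ± 0.393 and Znrf3 -0.37 ± 0.265, both with adjusted p = 1 in edgeR. The metabolic genes had values of 0.028 ± 0.257 for Glul, 0.34 ± 0.396 for Oat, 0.19 ± 0.262 for Slc1a2 and 0.20 ± 0.616 for Rhbg, and Lgr5 had -0.19 ± 0.472. The 95% interval for Glul, -0.53 to 0.59, leaves room for a change in either direction. Where IVF female 1 was left out, the log2 fold changes were -0.68 for Axin2, -0.91 for Tbx3 and -0.23 for Rnf43. With both shallow libraries left out they were -0.61, -0.92 and -0.28.

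In males the question was the same, and no gene separated the groups. Of the 9 genes 8 had a log2 fold change below 0, beside 48.4% of all genes. Scaling by library size alone moved the median of all genes from 0.0098 to 0.14, and with it Glul, Lgr5, Oat and Rnf43 to values above 0. None of the 9 was called by edgeR, beside 0.00757% of all genes, none by DESeq2 or limma voom, and 0 of 9 had an unadjusted p under 0.05, beside 2.69%. No gene was without overlap, beside 8.91% of all genes in either direction. The values ran from -0.54 ± 0.627 (SE) for Rhbg and -0.44 ± 0.263 for Slc1a2 to 0.16 ± 0.353 for Axin2. Rhbg had -0.92 without IVF male 1, -0.90 without natural male 1, -0.088 without IVF male 3 and 0.060 without natural male 3, and Slc1a2 had -0.78 without IVF male 1. Glul was at -0.097 ± 0.257, with a 95% interval of -0.66 to 0.47. Within IVF males, library 1 was the highest for 9 of 9 genes and library 3 the lowest for 8 of 9. Library 1 led library 2 only narrowly for Axin2 (9.06 against 9.05 CPM) and Rnf43 (31.3 against 30.9 CPM). The share over all genes was not measured, so whether this order is particular to the 9 was not tested. Macrophage markers differed in the same comparison: 9 of 9 had log2 fold changes below 0, with a median of -0.70, 0 were called by edgeR and 6 had an unadjusted p under 0.05. Summed over the 9 hepatocyte markers, the level was 84200 to 102000 CPM in IVF males and 109000 to 115000 CPM in natural males. Of these markers 6 were below 0, 0 were called by edgeR and 0 had an unadjusted p under 0.05. Lower without overlap were 3 of 9, beside 8.91% of all genes in either direction. The part of either marker list in the values of the 9 genes was not tested.

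The difference between the male and the female IVF effect was tested directly. It was 1.15 ± 0.5 (SE) on the log2 scale for Axin2, with a value below 0 in females and above 0 in males (95% interval 0.058 to 2.24, edgeR adjusted p = 1). Tbx3 had 0.91 ± 0.528 (95% interval -0.25 to 2.06, edgeR adjusted p = 1). None of the 9 was called by edgeR, DESeq2 or limma voom, beside 0% of all genes in edgeR, and 1 of 9 had an unadjusted p under 0.05, beside 3.87%. The value for Tbx3 was 0.62 without IVF female 1 and 0.60 without natural male 1, and without both shallow libraries the value for Axin2 was 0.77 and that for Tbx3 0.63. Averaged over both sexes, the IVF effect was below 0 for 8 of 9 genes, beside 50.9% of all genes. Library size alone turned Glul, whose value was -0.034 ± 0.182, to above 0. Tbx3 had the value of smallest p, -0.74 ± 0.265 (95% interval -1.32 to -0.16, edgeR adjusted p = 1). No gene of the 9 was called by edgeR, beside 0.00757% of all genes, or by DESeq2 or limma voom, and 1 of 9 had an unadjusted p under 0.05, beside 2.69%.

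**Figure D2:**
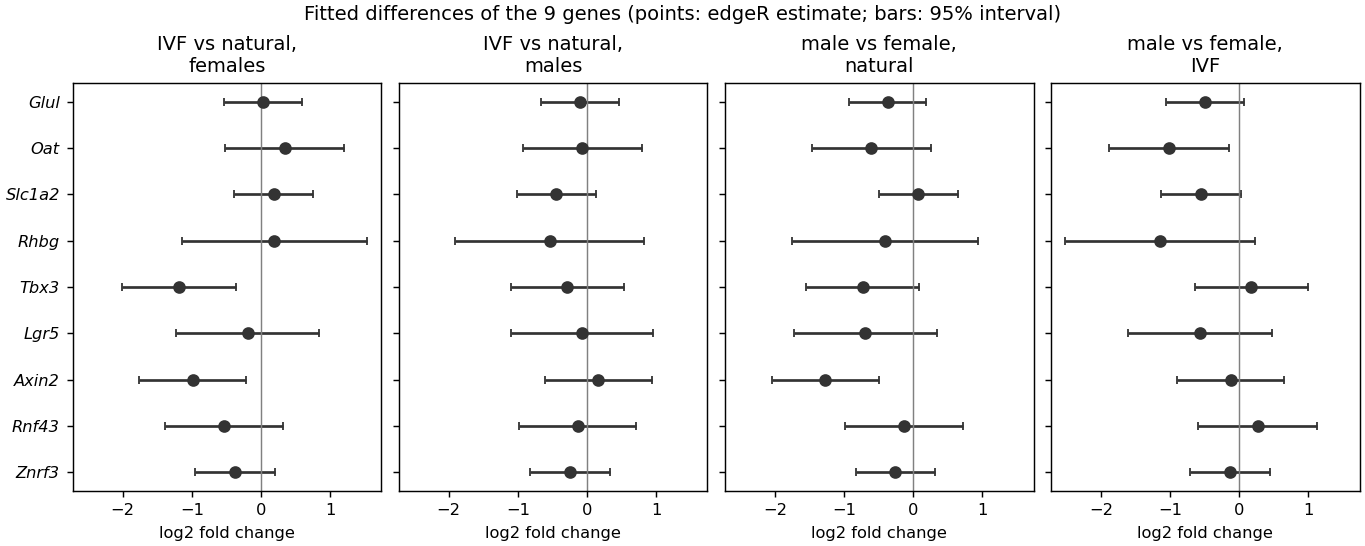
Log2 fold changes (horizontal axes) of the 9 genes in 4 comparisons, as edgeR estimates with 95% intervals. In females the IVF intervals of Tbx3 and Axin2 lie below 0, and in natural livers the Axin2 interval for males against females does; no adjusted p passed the threshold of 0.05.

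The comparisons of the sexes reuse the same 4 groups and so are not independent of those of conception. After natural conception, Axin2 was lower in all 3 males than in all 3 females. It was the single gene of the 9 without overlap, beside 9.85% of all genes lower without overlap. Its log2 fold change was -1.27 ± 0.355 (SE), or 2.41-fold lower (95% interval -2.04 to -0.49, edgeR adjusted p = 0.11). None of the 9 was called by edgeR, beside 1.77% of all genes, and 1 of 9 had an unadjusted p under 0.05, beside 14.9%. Limma voom called 0. DESeq2 called 1, Axin2, with an adjusted p of 0.0182, beside 5.13% of all genes in that test. EdgeR with library size alone gave Axin2 an adjusted p of 0.0415, beside 3.86% called of all genes, and moved their median to -0.34. Over all alternatives the adjusted p of Axin2 ranged from 0.0182 to 0.29. Tbx3 had -0.73 ± 0.374, Lgr5 -0.69 ± 0.472 and Oat -0.60 ± 0.397, each with overlapping groups. Leaving out single libraries moved these values: without natural male 1 Tbx3 had -0.43 and without natural male 3 -1.14, without natural male 3 Lgr5 had -0.45 and without natural male 2 -1.29, and without natural female 1 Oat had -0.21. Of the 9 genes 8 had values below 0, beside 52.1% of all genes. Slc1a2 was the exception at 0.079 ± 0.262, which library size alone turned to -0.22.

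After IVF, Rhbg and Oat had the values farthest from 0. Oat had a log2 fold change of -1.01 ± 0.399 (SE) for males against females, and IVF male 1 reached into the female range (95% interval -1.89 to -0.14, edgeR adjusted p = 0.249). Rhbg had -1.15 ± 0.630, Slc1a2 -0.55 ± 0.263 and Glul -0.49 ± 0.258 (edgeR adjusted p = 0.442, 0.361 and 0.416), and Lgr5 had -0.57 ± 0.476 (adjusted p = 0.647). Single IVF males moved these values: without IVF male 1 they were -1.60 for Oat, -0.88 for Slc1a2 and -1.08 for Lgr5, and without IVF male 3 they were -0.69 for Rhbg, -0.27 for Glul and -0.20 for Lgr5. Axin2 had -0.12 ± 0.354 here, and the direct test of whether its sex difference depends on conception is the 1.15 given above. None of the 9 was called by edgeR, beside 2.19% of all genes, or by DESeq2 or limma voom, and 1 of 9 had an unadjusted p under 0.05, beside 14.9%. No gene lacked overlap, beside 10.1% of all genes lower without overlap.

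Averaged over both modes of conception, males had lower values than females for 8 of 9 genes, beside 51% of all genes. Oat had -0.81 ± 0.281 (SE), 1.75-fold lower (95% interval -1.42 to -0.19, edgeR adjusted p = 0.108). Axin2 had -0.69 ± 0.250 (95% interval -1.24 to -0.15, edgeR adjusted p = 0.118) and Glul -0.43 ± 0.182, or 1.35-fold lower (-0.83 to -0.032, adjusted p = 0.179). Rhbg had -0.78 ± 0.441 and Lgr5 -0.63 ± 0.335, and Rnf43, the exception, had 0.069 ± 0.276, which library size alone, limma voom and the fit without both shallow libraries turned below 0. None of the 9 was called by edgeR, beside 7.2% of all genes, and 3 of 9 had an unadjusted p under 0.05, beside 23.6%. DESeq2 called 1, Oat, with an adjusted p of 0.0393, beside 12.8% of all genes in that test, while limma voom called 0. Leaving out single libraries moved calls as well: Axin2 had an adjusted p of 0.041 without IVF female 1 and 0.0489 without both shallow libraries, and Oat 0.0272 without IVF male 1, beside 5.83%, 8.03% and 4.9% of all genes called in those fits.

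Livers of the same group also differed from one another, and the 9 genes did so partly together. Deviations from the group mean were compared over the 12 libraries for all 36 pairs of genes, with exact permutation of libraries within groups. Pearson's r was above 0 for 36 of 36 pairs, with a median of 0.369. The share among pairs of other genes was not measured, so whether this is particular to the 9 was not tested. Among the 9, Tbx3, Axin2, Rnf43 and Rhbg formed the tightest block. A gene outside the set, Taco1, the top of a search, had r = 0.95 with Axin2. Axin2 and Tbx3 had r = 0.93 and Spearman's rho = 0.87 (exact permutation p = 0.000772 for each, the smallest the 1296 orderings can give, adjusted p = 0.0278 for each over the 36 pairs), and r = 0.90 without the 2 libraries farthest from the median. Tbx3 and Rnf43 had r = 0.91 and rho = 0.85, and Axin2 and Rnf43 had r = 0.90 and rho = 0.87 (exact permutation p = 0.00386 and adjusted p = 0.0347 for each value). Without the 2 farthest libraries these were r = 0.79 and r = 0.83. Rhbg and Rnf43 had r = 0.88 (exact permutation p = 0.00231, adjusted p = 0.0347) and rho = 0.80 (exact permutation p = 0.00386, adjusted p = 0.0347), and r = 0.84 without the 2 farthest. No other pair passed by r, and by rho 1 more did, Rhbg with Tbx3 (rho = 0.81, exact permutation adjusted p = 0.0389). Glul passed with no gene of this block: its r was 0.06 with Axin2, 0.08 with Tbx3, 0.16 with Rnf43 and 0.42 with Rhbg. With Slc1a2 its r was 0.67 (exact permutation adjusted p = 0.371). Without both shallow libraries no pair passed, where 144 orderings allow no p under 0.00694, while r stayed at 0.94 for Axin2 with Tbx3 and 0.88 for Tbx3 with Rnf43. In that setting the r of Glul was 0.81 with Rhbg, 0.51 with Rnf43, 0.45 with Axin2 and 0.34 with Tbx3. The distance of Glul from the block thus depended on these libraries.

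**Figure D3:**
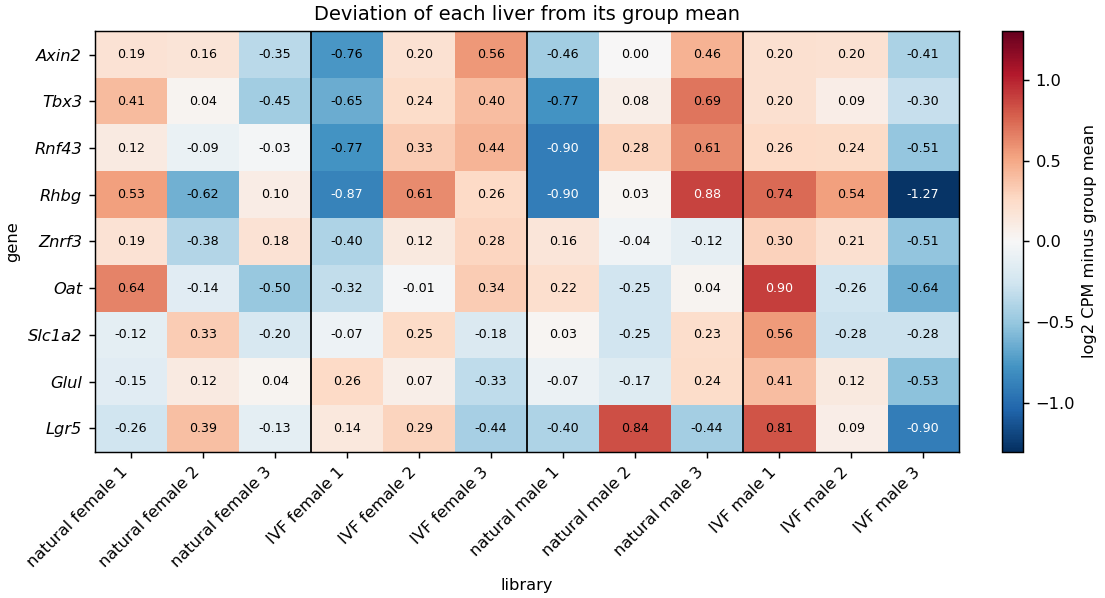
Deviation of each liver from its group mean in log2 CPM for the 9 genes and 12 libraries, red above and blue below the mean. Axin2, Tbx3, Rnf43 and Rhbg are below the mean together in IVF female 1, natural male 1 and IVF male 3, and above it in IVF females 2 and 3, IVF males 1 and 2, natural female 1 and natural male 3.

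Base composition moved with some of these deviations, as it did for many other genes: over all genes with known G and C content, 21.3% had r above 0.7 with the library index described here, beside 2 of the 9. The 4 genes of the block have the transcripts richest in G and C of the 9, from 54.2% for Tbx3 to 56.9% for Rhbg, while Lgr5 has 44.7%, Slc1a2 45.3% and Glul 49.2%. A library index was taken as the level of G- and C-rich genes against poor ones, by the upper and lower 20% of all genes. It was -0.66 in IVF female 1 and -0.65 in natural female 2, the shallow libraries, and -0.091 to 0.34 in the other 10. Over the 12 libraries, as deviations from group means, Rhbg had r = 0.73 with this index (exact permutation p = 0.00154, adjusted p = 0.00693 over 9 genes; rho = 0.62, p = 0.00463, adjusted p = 0.0208). Rnf43 had r = 0.59 and rho = 0.56 (exact permutation p = 0.000772 each, adjusted p = 0.00693 and 0.00695). Without the 2 farthest libraries, which were the shallow ones, these were r = 0.72 and r = 0.59. Rhbg and Rnf43 lie in the upper 20% (55.3% G and C or more) from which the index was built. Their r above 0 is therefore partly built in, and these p-values are no independent check. Znrf3 had r = 0.76, Tbx3 0.50, Axin2 0.48 and Oat 0.45, none past the adjusted threshold, and Glul had -0.081. With an offset for G and C content in the model, the IVF values in females were -1.003 for Axin2, -1.20 for Tbx3 and -0.52 for Rnf43, beside -0.99, -1.19 and -0.53 without it.

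**Figure D4:**
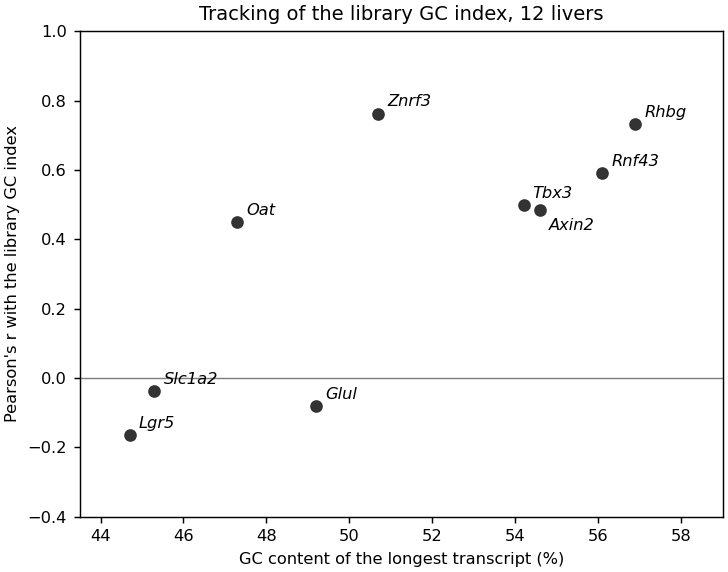
G and C content of each gene's longest transcript (horizontal axis, percent) against its Pearson's r with the library index of G- and C-rich genes over 12 libraries (vertical axis). Rhbg, Rnf43, Tbx3 and Axin2 lie at 54.2% to 56.9% with r of 0.48 to 0.73, Znrf3 at 50.7% with 0.76, Oat at 47.3% with 0.45, and Lgr5, Slc1a2 and Glul between -0.17 and -0.038.

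The signals upstream of these genes were present at low levels. Wnt2, a Wnt of the central vein endothelium, had group means of 2.16 to 2.46 CPM. Wnt9b, the other such Wnt, had 0.625 to 1.07 CPM, with as few as 1 count in a library. Rspo3, the R-spondin of the same cells, stood at 9.57 ± 3.56 CPM in natural females and 8.82 ± 2.41 CPM in IVF females, against 5.98 ± 0.295 and 6.54 ± 1.06 CPM in natural and IVF males (SD, n = 3). Ctnnb1, which encodes beta-catenin, had means of 205 to 223 CPM, and Tcf7l2, its main DNA-binding partner in liver, 13.4 to 16.9 CPM. In the 2 IVF comparisons within a sex, no gene passed in any list: 0 of 11 ligand and secretion genes, 0 of 12 receptors, 0 of 24 genes of beta-catenin signalling, 0 of 5 secreted antagonists, 0 of 8 other Wnt targets and 0 of 16 genes of glutamine and ammonia handling were called by edgeR. At an unadjusted p under 0.05 these lists held 1 gene in females, Wls, and 1 in males, Asns, beside 3.7% and 2.69% of all genes. The ligand list had the smallest p in IVF females for Wls, which escorts Wnts out of the cell, with a log2 fold change of 0.66 ± 0.246 (SE, edgeR adjusted p = 1). In the same comparison Notum, a secreted enzyme that inactivates Wnts and is induced by them, had -0.52 ± 0.361, Fzd6 -0.65 ± 0.505, Pygo1 0.90 ± 0.475, Frzb 0.35 ± 0.509 and Aldh4a1 0.37 ± 0.252, all with adjusted p = 1 in edgeR. In IVF males the corresponding genes were Rspo1 (-0.99 ± 0.517), Fzd3 (-1.35 ± 0.632), Btrc (0.20 ± 0.203), Dkk4 (-1.15 ± 0.715), Myc (-1.14 ± 0.811) and Asns (-1.70 ± 0.758), again with adjusted p = 1 in edgeR.

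Zonation genes outside the set were not called with IVF. Of 20 other pericentral genes, 16 had log2 fold changes above 0 in IVF females, with a median of 0.27 beside -0.015 over all genes. EdgeR called 0, beside 0% of all genes, and 2 had an unadjusted p under 0.05, beside 3.7%. Cyp1a2, a pericentral cytochrome P450, had 0.62 ± 0.250 (SE, edgeR adjusted p = 1), from 525 ± 66.4 CPM in natural to 807 ± 268 CPM in IVF females (SD, n = 3). The direction was thus opposite to that of Axin2 and Tbx3 in the same livers. Cyp2e1 had group means of 8350 to 9190 CPM and Lect2 77.4 to 134 CPM. Of 20 periportal genes 12 were above 0, with a median of 0.039, 0 were called and 1 had an unadjusted p under 0.05, Hsd17b6 with -0.43 ± 0.187 (edgeR adjusted p = 1). In IVF males 10 of 20 pericentral and 15 of 20 periportal genes were below 0, with medians of -0.028 and -0.26, and 0 were called, with 1 and 2 at an unadjusted p under 0.05. There Por, the electron donor of the P450 enzymes, had -0.73 ± 0.246 and Aldh1b1 -1.25 ± 0.452 (edgeR adjusted p = 1 for both). For Por the difference between the male and the female IVF effect was -1.22 ± 0.347, for Wls -0.88 ± 0.346, and neither was called (edgeR adjusted p = 1). Among periportal genes Cyp2f2 had means of 592 ± 386 CPM in IVF females to 1420 ± 302 CPM in IVF males, Hal 150 to 250 CPM, Sds 77.9 to 118 CPM and Gls2, the liver glutaminase, 160 to 250 CPM.

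**Figure D5:**
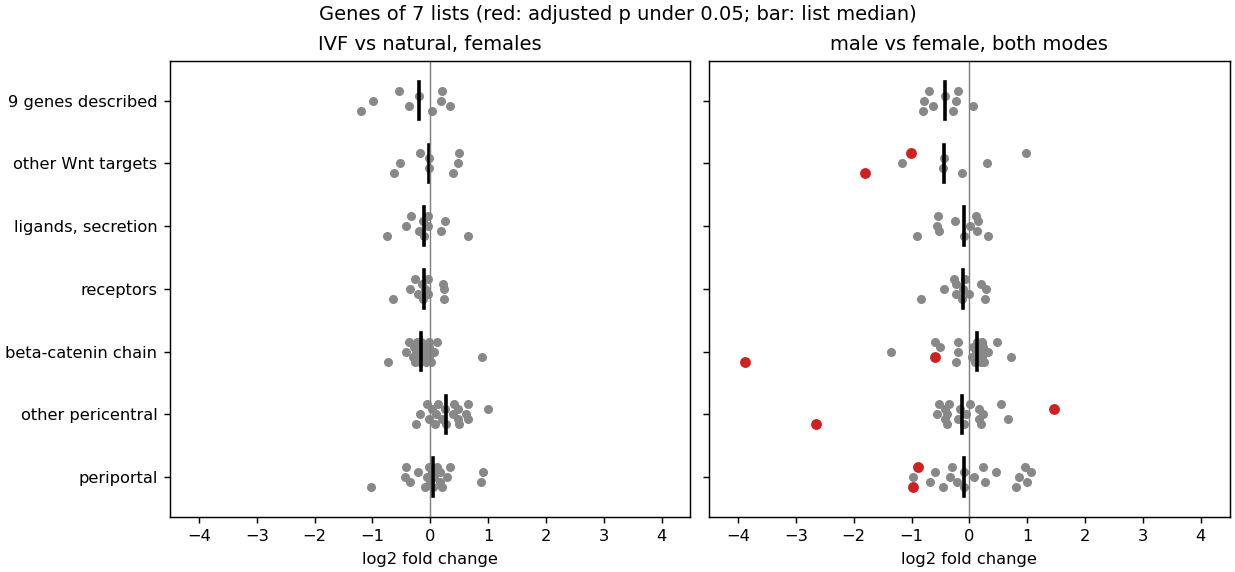
Log2 fold changes (horizontal axes) of the genes of 7 lists, for IVF against natural females and for males against females averaged over conception. Red points have an edgeR adjusted p under 0.05 and bars are list medians; 0 genes are red on the left, and Nkd1, Ccnd1, Pygo1, Bcl9, Cyp2c37, Csad, Ctsc and Pigr on the right.

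Between the sexes, edgeR called some other genes of the pathway. On average over conception it called none of the 9, beside 7.2% of all genes in either direction. The short lists were not tested against that share. Averaged over conception, 2 of 8 other Wnt targets were called lower in males and 0 higher, beside 3.63% of all genes lower and 3.57% higher. Nkd1, a feedback inhibitor of Wnt signalling, was 5.62 to 9.59 CPM in the 6 females and 3.15 to 4.26 CPM in the 6 males, without overlap, and fell in males by a log2 fold change of -1.01 ± 0.178 (SE, edgeR adjusted p = 0.0061). Ccnd1, cyclin D1, had -1.81 ± 0.32 (edgeR adjusted p = 0.00617). Of 24 genes of beta-catenin signalling 2 were lower and 0 higher. Pygo1, a coactivator of beta-catenin, had 8 to 55 counts in females and 0 to 5 in males and a value of -3.88 ± 0.433 (edgeR adjusted p = 0.000226). After IVF no male had more than 3 counts of Pygo1, which makes it at least 12.4-fold lower against a floor of 3 counts per library. Bcl9, another coactivator, had -0.59 ± 0.147 (edgeR adjusted p = 0.0355), and this call was lost in 8 of 12 fits that left out a library, with adjusted p up to 0.0774. Among 5 secreted antagonists 1 was higher in males. Dkk4, a secreted inhibitor of Wnt co-receptors, had 0 counts in all 6 females, 20 to 65 in natural males and 4 to 36 in IVF males (edgeR adjusted p = 0.0065), at least 8.67-fold higher after natural conception and at least 3.58-fold higher after IVF against that floor. Neither a ligand nor a receptor passed in edgeR. At an unadjusted p under 0.05 there were 3 of 11 and 1 of 12, beside 23.6% of all genes. Rspo3 had -0.54 ± 0.196 (edgeR adjusted p = 0.121), Wnt4 -0.90 ± 0.306 (adjusted p = 0.102) and Fzd6 -0.84 ± 0.362 (adjusted p = 0.186). Fzd6 was called without both shallow libraries (adjusted p = 0.0134) and with their covariate (0.00891), and Wnt4 with library size alone (0.0496) and in DESeq2 (0.0459).

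Within a single mode of conception fewer of these passed. After natural conception edgeR called Nkd1 (-1.11 ± 0.252 SE, adjusted p = 0.0499), Pygo1 (-3.58 ± 0.617, adjusted p = 0.0128) and Dkk4 (adjusted p = 0.0394). The Nkd1 call was lost in 11 of 12 fits that left out 1 library, all but the fit without natural female 3. The Dkk4 call was lost in 7 of 12, those without IVF male 3 or any library of the groups compared, and the Pygo1 call without natural female 1 or natural male 1. After IVF, Ccnd1 (-2.10 ± 0.458, adjusted p = 0.0358) and Pygo1 (-4.18 ± 0.609, adjusted p = 0.00345) were called by edgeR. The Ccnd1 call was lost in 7 of 12 such fits, those without any IVF library or natural male 3. Asns, which makes asparagine from glutamine, was the gene of ammonia and glutamine handling that differed, higher in males by 4.09 ± 0.685 on average (edgeR adjusted p = 0.00449). It had 1 to 18 counts in females and 22 to 349 in males, and after natural conception the groups overlapped in CPM (adjusted p = 0.0394, lost in 10 of 12 fits, all but those without natural female 3 or natural male 1).

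Of the other zonation genes, Cyp2c37 among the pericentral ones was lower in males after natural conception (-2.87 ± 0.448 SE, edgeR adjusted p = 0.00668), after IVF (-2.45 ± 0.440, adjusted p = 0.0129) and on average (-2.66 ± 0.314, adjusted p = 0.000361). The call after IVF was lost without IVF male 1 or IVF male 3. Csad, which makes hypotaurine for taurine synthesis, was higher in males on average (1.46 ± 0.400, adjusted p = 0.0487, lost in 10 of 12 fits that left out a library). With 1 higher and 1 lower of 20, beside 3.57% and 3.63% of all genes, the pericentral list as a whole had no common direction. Its median was -0.13. Among 20 periportal genes 0 were higher and 2 lower on average, Ctsc (-0.98 ± 0.176, edgeR adjusted p = 0.00664) and Pigr (-0.89 ± 0.235, adjusted p = 0.0434, lost in 10 of 12). Ctsc was also called after IVF (-1.27 ± 0.251, adjusted p = 0.022), a call lost without IVF female 1, IVF female 3 or any IVF male.

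Some markers of other liver cells also differed between the sexes in the same libraries. Summed over 9 macrophage markers, the level was 377 to 558 CPM in females, 346 to 380 CPM in natural males and 186 to 281 CPM in IVF males. On average over conception, 51% of all genes were lower in males, and edgeR called 3.63% lower. An unadjusted p under 0.05 was found for 23.6%. Of the macrophage markers 9 of 9 were lower in males and 4 were called by edgeR, led by Vsig4 (-1.44 ± 0.187 SE, adjusted p = 0.000738) and Clec4f (-0.67 ± 0.145, adjusted p = 0.0191). The Clec4f call was lost without IVF female 2 or natural male 3, and the other calls, Timd4 (-1.495 ± 0.366, adjusted p = 0.0322) and C1qb (-0.63 ± 0.159, adjusted p = 0.0376), in 7 and 9 of 12 fits that left out a library. The 10 endothelial markers, a list not limited to the central vein, summed to 321 to 398 CPM in females, 287 to 340 CPM in natural males and 267 to 298 CPM in IVF males. Of these 9 of 10 were lower in males and 0 were called by edgeR. With 3 of 10 at an unadjusted p under 0.05, they were near the 23.6% of all genes. Of 9 stellate cell and fibroblast markers 7 were lower and 2 called, Dcn (-0.55 ± 0.148, adjusted p = 0.0455) and Lrat (-0.83 ± 0.226, adjusted p = 0.0487), calls lost in 12 and 10 of 12 fits that left out a library. Of 7 lymphocyte markers 7 were lower and 3 called, led by Ptprc (-0.95 ± 0.178, adjusted p = 0.00864) and Cd3g (-2.22 ± 0.502, adjusted p = 0.0235, lost in 4 of 12). The other was Nkg7 (-2.52 ± 0.638, adjusted p = 0.0365, lost in 9 of 12). Ptprc is not limited to lymphocytes. Counts were low for the others, with 7 to 21 in females and 1 to 6 in males for Cd3g. Nkg7 had 2 to 16 counts in females and 0 to 5 in males. Of 7 cholangiocyte markers 5 were lower and 0 called. No macrophage, endothelial or stellate marker was at 0 in all libraries. Their part in the sex values of the 9 genes was not tested. In the IVF comparison in females edgeR called 0 markers of the 8 marker lists, beside 0% of all genes. This count was therefore 0 for any list. An unadjusted p under 0.05 was found for 0 of these markers, beside 3.7% of all genes. The part of these cells in the IVF values of the 9 genes was not tested.

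Finally, the genes whose deviations were most like those of Glul and Axin2 were listed, in a search of 7356 genes averaging 10 CPM or more, over 12 libraries with group means removed. For Glul these were Pdf, a mitochondrial peptide deformylase (r = 0.89, rho = 0.82), Cd44, a cell adhesion receptor (r = 0.83, rho = 0.69), and Akr1e1, an aldo-keto reductase (r = 0.79, rho = 0.63). Cd44 was also on the list of other Wnt targets used above. For Axin2 they were Taco1 (r = 0.95, rho = 0.87), Asgr2, a subunit of the hepatocyte asialoglycoprotein receptor (r = 0.92, rho = 0.92), and Zfp746 (r = 0.90, rho = 0.90). These are the top values of a search and carry no test. The 3 genes most like Axin2 have 53.4% to 56.1% G and C, near the 54.6% of Axin2 itself.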

How the data were processed

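Poly-A selected liver RNA of 12 mice was sequenced on an Illumina NextSeq, per the labels. The authors deposited 1 table of raw read counts, a whole number for each gene and library, and nothing in it is normalized. The submitters' processing notes name Trimmomatic 0.32, STAR 2.3.0e, featureCounts 1.5.0 and the mm10 build; annotation, strand and reads matching several genes are not given in the sources used here. Columns were matched by sample title.

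Counts were tested with edgeR 4.0.16 (R 4.3.3): filterByExpr by group, TMM, 1 quasi-likelihood model over all 12 libraries, 7 contrasts, and Benjamini-Hochberg adjustment over 13204 genes, called under 0.05. SE is the log2 fold change over the root of F. Positions, exon lengths and G and C content came from GENCODE M21 (GRCm38), and promoters from RefSeq. The labels do not tie samples to litters, and p-values measure the spread between these libraries. No pair of libraries in a group was a repeat (chi-square per degree of freedom at least 84). On simulated counts for the IVF comparison in females (13204 genes), 15% of 2-fold and 81.7% of 4-fold or larger changes were recovered.

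The genes and lists were chosen with earlier results of these data known. Named genes are the 9 in each comparison, from each list and comparison up to 2 called genes of smallest adjusted p or else the gene of smallest p (marker lists only where called, and the averages and the IVF difference in part), 14 genes by level, and the 3 genes most like Glul and Axin2. Alternatives were DESeq2 1.42.0 and its size factors, library size alone, no filter, a mean of at least 1 CPM, limma 3.58.1 voom, the shallow libraries left out or given a covariate, the 6 compared libraries alone, and each library left out. An offset for G and C content was chosen after seeing the data.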

Additional observations from a re-analysis of the deposited data

How the results depend on the processing

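No paired analysis was possible because the labels number animals rather than replicates, and the library numbers used here are only names; 1 number shared by IVF female 1 and IVF male 2 pairs no more than these libraries. Over 63 pairs of gene and comparison, 1359 alternative values were computed, and 63 of them, in 24 pairs, changed direction. None of these was past the threshold on either side. The 4 IVF comparisons kept 0 of 9 genes called under every alternative, as did the sexes after IVF. For the sexes after natural conception the count was 1 with library size alone and 1 in DESeq2, beside 3.86% and 5.13% of all genes called in these fits. For the average sex effect it was 2 with library size alone, 1 in DESeq2, 1 without both shallow libraries (12.3%, 12.8% and 8.03% of all genes), and 0 to 1 with a single library left out. The count of correlated pairs was 0 without both shallow libraries and 1 with library size alone, beside 4. Library size alone moved the median of all genes to -0.34 for the sexes after natural conception, -0.22 for the average sex effect and 0.23 for the difference of IVF effects, and by less than that for the others. The cause of the changes that follow was not tested.

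With library size alone, Glul turned to -0.050 for IVF in females, 0.051 in males, 0.10 for their difference and 0.00041 for their average. Lgr5, Oat and Rnf43 turned to 0.11, 0.095 and 0.012 for IVF in males, Slc1a2 to -0.22 for sex after natural conception and Rnf43 to -0.14 for the average sex effect. Rnf43 in that average was also -0.013 in voom, -0.12 without both shallow libraries, -0.10 with their covariate and -0.024 with the G and C offset. Without both shallow libraries Glul was -0.034 for IVF in females, Lgr5 -0.069 for the difference of IVF effects, and Tbx3 -0.11 and Rnf43 -0.052 for sex after IVF.

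With 1 library left out, values for IVF in females ran from -0.085 to 0.18 for Glul, -0.14 to 0.53 for Rhbg, -0.37 to 0.025 for Lgr5 and -0.0048 to 0.63 for Frzb. For IVF in males they ran from -0.66 to 0.21 for Oat, -0.31 to 0.12 for Glul, -0.59 to 0.51 for Lgr5, -0.47 to 0.19 for Rnf43, -0.048 to 0.44 for Axin2, -0.92 to 0.060 for Rhbg, -0.59 to 0.12 for Tbx3 and -2.15 to 0.77 for Myc. For the difference of IVF effects the ranges were -0.072 to 0.34 for Znrf3, -0.40 to 0.71 for Lgr5 and -0.34 to 0.10 for Glul. For the average IVF effect they were -0.14 to 0.076 for Glul, -0.16 to 0.34 for Oat, -0.39 to 0.16 for Lgr5, -0.36 to 0.13 for Rhbg and -0.44 to 0.025 for Kremen1. For sex after natural conception they were -0.038 to 0.26 for Slc1a2 and -0.45 to 0.21 for Rnf43. For sex after IVF they were -0.11 to 0.38 for Tbx3, -0.051 to 0.49 for Rnf43, -0.43 to 0.20 for Axin2 and -0.34 to 0.090 for Znrf3, and for the average sex effect -0.094 to 0.24 for Rnf43.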
